A study of Mus musculus with 6 samples.

Results

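CREB and the proteins it works with were followed across 3 hippocampal RNA samples labelled inhibitor-1 KO and 3 labelled wild type, each on 1 Affymetrix mouse array. The genes were Creb1 and Crem (CRE-binding transcription factors), Crtc1, Crtc2 and Crtc3 (CREB-regulated transcription coactivators), and Crebbp and Ep300 (the acetyltransferases CBP and p300). They were taken by symbol: every probe set that the platform annotation assigns to exactly 1 of these 7 symbols was used, which gave 22 probe sets. The arrays carry probe sets of 18194 genes named in this way. KO mice lack inhibitor-1, which Ppp1r1a encodes and which blocks protein phosphatase 1, and wild-type mice carry the gene. Strain, age, sex, the targeted allele and whether each array stands for a separate animal are not given in the labels, so p-values cover the spread between these arrays only, and that spread may be technical.

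CREB binds the cAMP response element (CRE) and is switched on when protein kinase A, CaM kinases or growth-factor kinases phosphorylate an activation-site serine in its kinase-inducible domain. The phosphorylated domain recruits CBP or p300, and protein phosphatase 1 removes the phosphate. Phosphorylated inhibitor-1 restrains that phosphatase, and CREB-dependent transcription in the hippocampus is known for its part in long-lasting synaptic plasticity and memory. The arrays measured RNA, so phosphorylation of CREB, the step on which the phosphatase acts, was not measured.

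Ppp1r1a checked the labels. Its probe set 1422605_at read 272, 249 and 347 intensity units on the KO arrays, against 9061, 8370 and 10345 on the wild-type arrays, and its log2 change was -4.93 (SE 0.18) at a limma adjusted p of 3.58e-07. Replicate 1 had the lowest array median of its group, 542 units in KO and 574 in wild type, and the leading Creb1 and Crem results are also given without it. The beta-actin control probe sets had a ratio of 3' to 5' signal of 1.18 to 1.21 in KO and 1.24 to 1.30 in wild type, without overlap, while that of Gapdh was 0.821 to 0.829 in KO and 0.809 to 0.880 in wild type, with overlap. All 8 hippocampal principal neuron markers were bright enough to test, and their mean log2 level was 13.29 to 13.38 in KO and 13.40 to 13.45 in wild type, with 6 of 8 genes below 0. Meningeal markers had a log2 change above 0 for 7 of 7 genes (11.31 to 11.90 in KO, 11.16 to 11.27 in wild type), and choroid plexus markers for 7 of 8 (12.41 to 13.24 in KO, 11.68 to 12.80 in wild type). Oligodendrocyte markers were at 14.95 to 15.05 in KO and 15.08 to 15.21 in wild type, with 4 of 5 below 0, and thalamic markers at 10.39 to 10.67 in KO and 10.68 to 10.70 in wild type, with 3 of 4 below 0. The only red blood cell marker tested, Alas2, was at 9.64 to 10.12 in KO and 8.45 to 9.41 in wild type. For astrocyte, microglial, endothelial and striatal markers, as for choroid plexus markers, the groups overlapped in mean log2 level. Of the 5 astrocyte markers, 2 did not overlap by their brightest probe set, Gfap being lower in KO and Slc1a3 higher. No marker was at 0, and the part of these shifts in the results below was not tested.

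Of the 22 probe sets, 17 were bright enough to be tested, and no difference passed the threshold. In whole-tissue RNA, fewer cells of a type and less RNA per cell cannot be told apart. Changes are of log2(intensity + 16), KO minus wild type, and a Benjamini-Hochberg adjusted limma p under 0.05 over 26999 probe sets was the threshold. It was passed by 0 of the 17, where 0.0111% of all tested probe sets passed, and the lowest limma adjusted p among the 17 was 0.988. At an unadjusted p under 0.05 there were 2 of 17 (11.8%), where 4.38% of all probe sets were called. One was a probe set of Crem, higher in KO, where 2.17% of all were called higher, and the other a probe set of Creb1, lower in KO, where 2.21% of all were called lower. KO and wild-type arrays did not overlap for 4 of the 17 (23.5%), where 9.89% of all probe sets did not overlap. Of the 4, 2 were higher and 2 lower, where 4.97% of all probe sets were higher without overlap and 4.91% lower. Probe sets of 1 gene may read shared transcripts, so these cannot be taken as 17 independent measurements.

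The count of 2 fell in each fit that left out arrays. It was 0 without KO replicate 1, without wild type replicate 1 or without wild type replicate 3, and 1 without KO replicate 2, without KO replicate 3, without wild type replicate 2 or without replicate 1 of both groups. In that last fit the 1 was a different probe set, 1452901_at of Creb1, with a log2 change of 0.25. A fit with fewer arrays is also less precise, and the part of this in the lower counts was not tested. The median log2 change was 0.08 over the 17 probe sets and 0.004 over all 26999, and the median size of the change regardless of sign was 0.13 over the 17 and 0.12 over all.

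**Figure D1:**
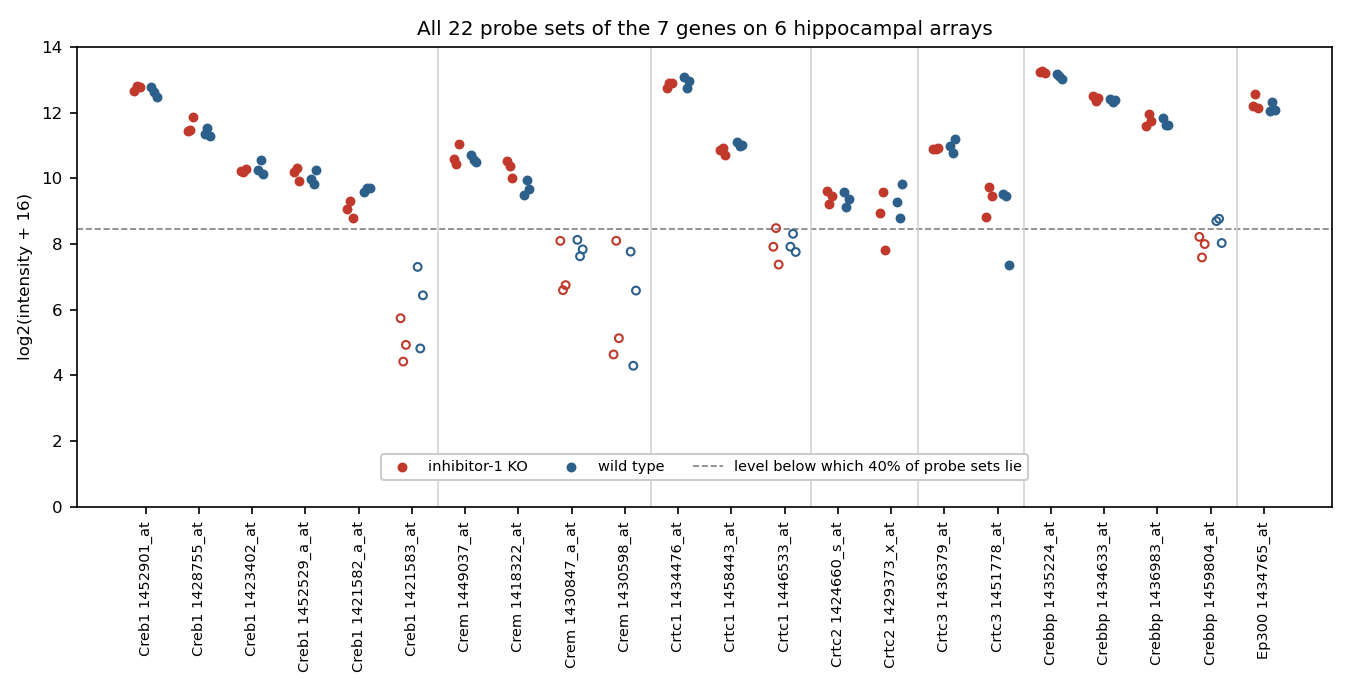
Level of all 22 probe sets as log2(intensity + 16) on each array, with the 3 inhibitor-1 KO arrays left of the 3 wild-type arrays. Filled points mark the 17 tested probe sets, and open points the 5 whose mean lies under the dashed level of 8.44, below which 40% of all probe sets lie.

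Creb1, the founding member of the family and its main activator in neurons, had 5 tested probe sets that disagreed in sign. The brightest, 1452901_at, read 6414, 7158 and 7063 units in KO, against 7039, 6321 and 5652 in wild type. The KO arrays lay among or above the wild-type arrays, with overlap. The log2 change was 0.12 (SE 0.10), with a 95% interval of 0.93 to 1.27 for the fold of KO over wild type.

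Probe set 1428755_at was designed from the same transcript record as 1452901_at. It read 2783, 2810 and 3685 units in KO, against 2578, 2937 and 2468 in wild type, a log2 change of 0.21 (SE 0.15). Its highest value was KO replicate 3, without which the change was 0.08. The changes of 1452529_a_at (0.13, SE 0.22) and 1423402_at (-0.06, SE 0.19) were smaller than their standard errors.

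The other reading of Creb1 came from 1421582_a_at, a dimmer probe set. The suffix _a_at, which 1452529_a_at also carries, marks a set whose probes match several transcripts of 1 gene. Probe set 1421582_a_at read 526, 615 and 428 units in KO, against 753, 827 and 824 in wild type. All KO arrays thus lay below all wild-type arrays. The group means were 523 ± 94 in KO and 802 ± 42 in wild type (SD, n = 3 each). The log2 change was -0.61 (SE 0.27, 95% interval -1.21 to -0.02, limma adjusted p = 0.988). Leaving out 1 array at a time it was -0.74 to -0.48, and without replicate 1 of both groups -0.67, below 0 in each of these fits (limma adjusted p 0.483 or above).

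Set against the brightest Creb1 probe set on the same array, 1421582_a_at differed by -3.57, -3.51 and -4.00 log2 units in KO, against -3.20, -2.91 and -2.75 in wild type. The KO minus wild-type difference of this contrast was -0.74 (two-sided exact permutation p = 0.1, the smallest that 3 against 3 arrays allow). It was 1 of 10 such contrasts within a gene, and adjusted over the 10 the exact permutation p was 0.778. No source used here says which Creb1 transcripts each probe set reads. The last Creb1 probe set, 1421583_at, was among the 5 too dim to test.

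Crem encodes both activators and repressors that bind the CRE, among them ICER, the inducible repressor made from an internal promoter that CREB itself drives. Its probe set 1418322_at read 1463, 1301 and 1020 units in KO, against 709, 968 and 806 in wild type. Every KO array lay above every wild-type array, with KO replicate 3 and wild type replicate 2 closest to each other. The means were 1261 ± 224 in KO and 828 ± 131 in wild type (SD, n = 3 each).

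The log2 change of 1418322_at was 0.59 (SE 0.23, 95% interval 0.09 to 1.10, limma adjusted p = 0.988), a fold of 1.51. Of the 17 tested probe sets it had the smallest p, and 560 other probe sets of the array had a smaller one (rank 561). Leaving out 1 array at a time the change was 0.48 to 0.74, and without replicate 1 of both groups it was 0.38 (limma adjusted p = 0.655).

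The other tested Crem probe set, 1449037_at, read 1518, 1380 and 2096 units in KO, against 1670, 1502 and 1417 in wild type. Its groups overlapped, the log2 change was 0.10 (SE 0.19), and KO replicate 3 alone carried its sign, since the change was -0.08 without that array. The contrast of 1418322_at with 1449037_at on the same array was 0.49 higher in KO (exact permutation p = 0.3). The remaining Crem probe sets, 1430847_a_at and 1430598_at, were too dim to test. Which of these probe sets read ICER is likewise not stated, so the values above are not split into activator and repressor forms.

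**Figure D2:**
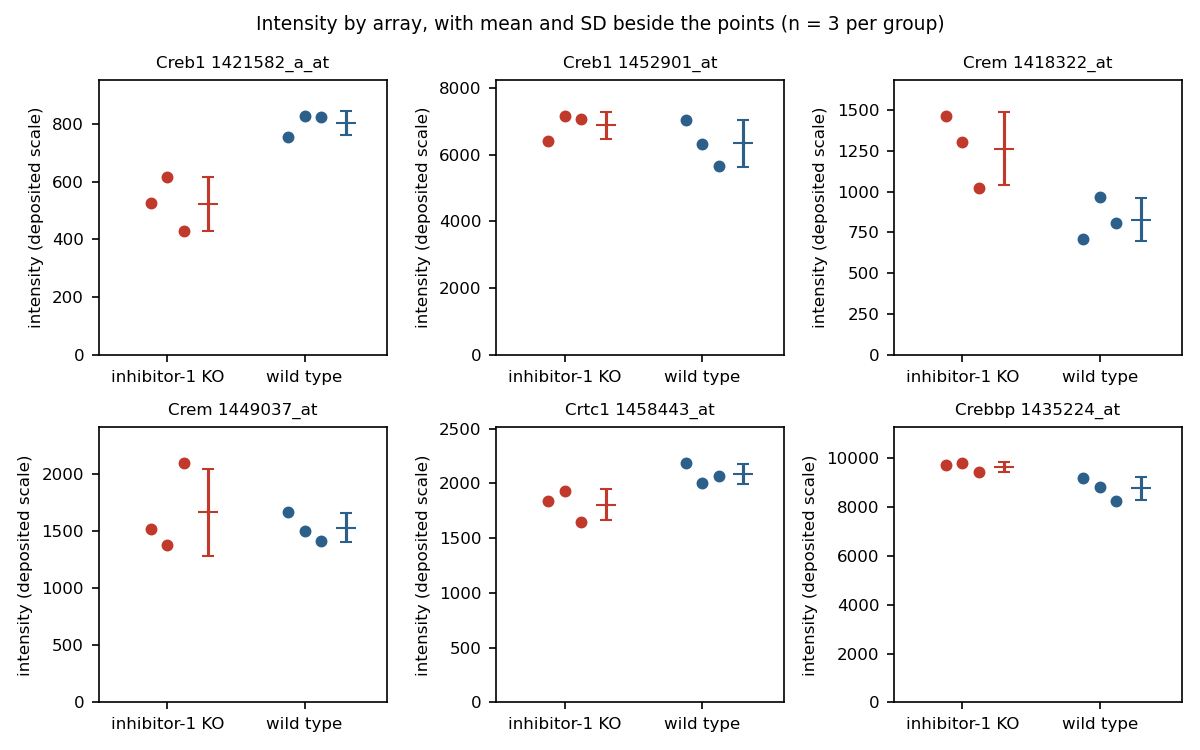
Intensity on the deposited scale of 6 probe sets, 1 point per array, with inhibitor-1 KO left of wild type and the mean and SD (n = 3) beside the points. Creb1 1421582_a_at (428 to 615 in KO, 753 to 827 in wild type) and Crem 1418322_at (1020 to 1463 in KO, 709 to 968 in wild type) do not overlap, while the brightest probe set of the same gene does.

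The Crtc proteins bind the DNA-binding region of CREB and move into the nucleus when calcineurin dephosphorylates them. Crtc1 is the form best known in forebrain neurons, where synaptic activity drives it to the nucleus. Its brightest probe set, 1434476_at, read 6845, 7683 and 7582 units in KO, against 8729, 6850 and 7943 in wild type, with overlap and a log2 change of -0.08 (SE 0.10). The 95% interval of the fold was 0.80 to 1.11.

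Probe set 1458443_at of Crtc1 read 1836, 1932 and 1652 units in KO, against 2185, 2002 and 2071 in wild type. The KO arrays all lay below the wild-type arrays, by a narrow gap between KO replicate 2 and wild type replicate 2. The log2 change was -0.21 (SE 0.15, limma adjusted p = 0.988), and it stayed between -0.26 and -0.15 leaving out 1 array. Both tested Crtc1 probe sets thus had a change below 0, and neither passed, but that of 1434476_at was -0.003 without wild type replicate 1 and 0.05 without replicate 1 of both groups. The third, 1446533_at, was too dim to test.

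Crtc2, best known as the coactivator that drives liver gluconeogenesis, was read by 2 probe sets whose suffixes (_s_at and _x_at) mark probes that can match other transcripts, so its values are uncertain. Probe set 1424660_s_at read 765, 584 and 691 units in KO, against 748, 542 and 645 in wild type, a log2 change of 0.08 (SE 0.27). Probe set 1429373_x_at scattered from 212 to 754 in KO and from 423 to 886 in wild type. Its log2 change was -0.49 (SE 0.46), and -0.01 without KO replicate 3, which held the value of 212.

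Crtc3, the third member of that family, read 1902, 1900 and 1944 units in KO at 1436379_at, against 2005, 1751 and 2351 in wild type. The log2 change was -0.08 (SE 0.16). At its dimmer probe set 1451778_at the values were 440, 833 and 697 in KO, against 721, 692 and 147 in wild type, so wild type replicate 3 stood far below the other 5 arrays. The log2 change of 0.57 (SE 0.54) had the widest interval of the 17, -0.62 to 1.75, and was -0.15 without wild type replicate 3.

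CBP and p300 are large acetyltransferases that CREB recruits to acetylate histones and other proteins at its targets, and loss of 1 copy of CREBBP or EP300 causes Rubinstein-Taybi syndrome in humans. All 4 of their tested probe sets had a log2 change above 0, between 0.07 and 0.15, and none passed the threshold. Crebbp was brightest at 1435224_at, which read 9689, 9784 and 9416 units in KO, against 9182, 8819 and 8240 in wild type. The groups did not overlap, though KO replicate 3 and wild type replicate 1 lay close.

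The log2 change of Crebbp 1435224_at was 0.14 (SE 0.08, limma adjusted p = 0.988). Its means were 9630 ± 191 in KO and 8747 ± 475 in wild type (SD, n = 3 each), and its 95% interval, a fold of 0.97 to 1.25, was the narrowest of the 17. Probe sets 1434633_at and 1436983_at each had a log2 change of 0.07, with standard errors of 0.09 and 0.13. That of 1436983_at turned on 1 array, being -0.03 without KO replicate 2. The last Crebbp probe set, 1459804_at, was too dim to test, and its plain difference in mean log2 level was -0.56.

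Ep300 has a single probe set, 1434765_at, which read 4715, 6074 and 4524 units in KO, against 4270, 5105 and 4320 in wild type. The groups overlapped, and the log2 change of 0.15 (SE 0.13, fold interval 0.91 to 1.36) was 0.02 without KO replicate 2, the highest array. Ep300 lies on chromosome 15, as the targeted gene does, 208 measured genes from Ppp1r1a. None of the other 6 genes is on that chromosome.

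**Figure D3:**
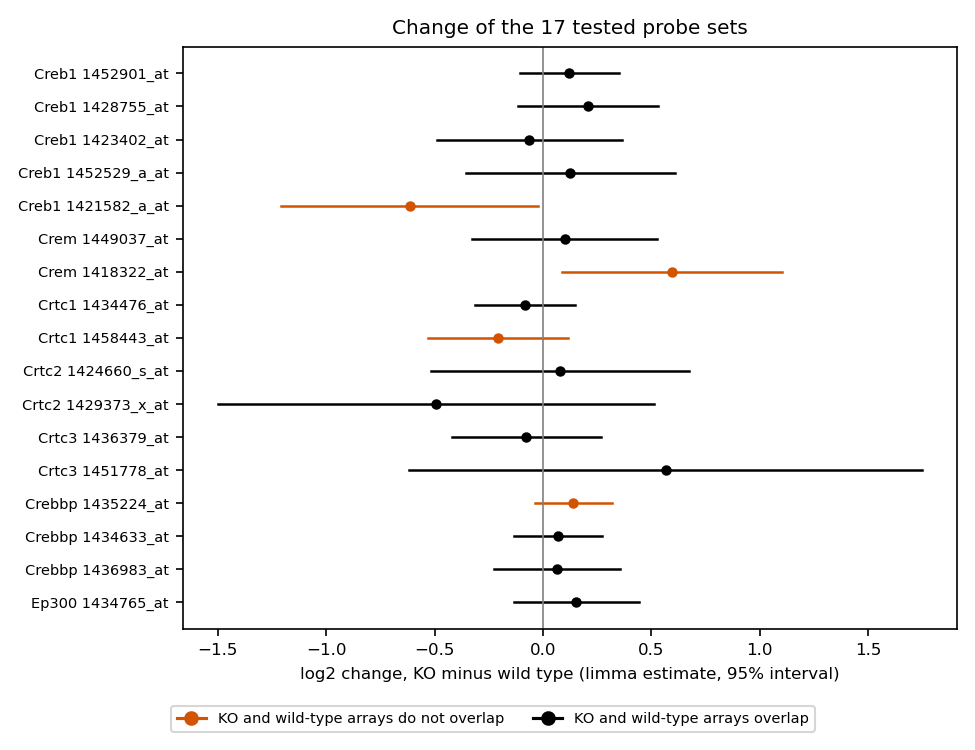
Log2 change, KO minus wild type, of the 17 tested probe sets with its 95% limma interval, in orange where the KO and wild-type arrays do not overlap. The 15 other intervals span 0, while those of Creb1 1421582_a_at (-1.21 to -0.02) and Crem 1418322_at (0.09 to 1.10) do not, and the 4 probe sets of Crebbp and Ep300 lie between 0.07 and 0.15.

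The 5 probe sets too dim to test were compared as plain values. They ranged from 3.64 to 421 units over all arrays, and for each of them the KO and wild-type arrays overlapped. When a gene was taken as the mean of its tested probe sets rather than its brightest one, the log2 change was -0.04 for Creb1, 0.35 for Crem, -0.15 for Crtc1, -0.21 for Crtc2, 0.24 for Crtc3 and 0.09 for Crebbp, and no adjusted limma p was under 0.921. The sign thus depended on that choice for Creb1, Crtc2 and Crtc3, and not for Crem, Crtc1 and Crebbp. Over 6 arrays, the log2 profile of Creb1 1452901_at was closest to those of Eral1, Rpusd4 and Fbxo11 among 12492 other genes, with root mean square differences of 0.032, 0.032 and 0.033 after each profile was centred on its mean.

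The genes around CREB were then counted, each by its brightest tested probe set. Over all 12493 genes, 0.016% passed the threshold and 4.75% had an unadjusted p under 0.05, and the median log2 change of each list is given beside a median of all genes that was under 0.001 in size. The list of CREB and CRTC phosphatases had 9 tested genes, with Ppp1r1a, the gene of the inhibitor, counted among them. The targeted Ppp1r1a passed, lower in KO, and the 8 phosphatase genes did not (median of the 9 genes 0.004). Ppp1ca, a catalytic subunit of protein phosphatase 1, had a log2 change of 0.12. In the other lists no gene passed in either direction, and the 2 genes of smallest p in each had a limma adjusted p of 0.988.

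Of 7 kinases of the CREB activation site, 4 had a change above 0 (median 0.05), and 1 had an unadjusted p under 0.05. This was Akt1, a growth-factor kinase, which read 6098, 5774 and 7108 units in KO, against 8506, 8178 and 8015 in wild type. Its KO arrays all lay below the wild-type arrays, with a log2 change of -0.38 (SE 0.10). Its 2 other probe sets had changes of -0.08 and 0.08. Prkaca, the alpha catalytic subunit of protein kinase A, had a log2 change of -0.17.

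Of 11 CRTC kinases and 14-3-3 proteins, which hold Crtc proteins in the cytoplasm, 6 had a change above 0 (median 0.02). Sik2, a kinase that phosphorylates Crtc proteins, read 4815, 5210 and 5013 units in KO, against 4615, 4050 and 4229 in wild type. All KO arrays lay above the wild-type arrays, the log2 change was 0.22 (SE 0.10), and its other probe set had a change of 0.31. Ywhah, a 14-3-3 protein, had a log2 change of 0.08.

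Of 10 other bZIP factors, 6 had a change below 0 (median -0.09). They were CREB/ATF factors and genes of the C/EBP family, and the C/EBP genes had changes above 0. Atf5 was at -0.29 and Atf4, the factor of the integrated stress response, at 0.14. The other tested probe set of Atf4 had a change of -0.07. Of 12 other acetyltransferases and histone deacetylases, 9 had a change above 0 (median 0.12). Ncoa3 had a log2 change of 0.32 and Ncoa1 one of 0.14. Both are nuclear receptor coactivators that bind CBP and p300, and for both the KO arrays lay above the wild-type arrays. The other probe set of Ncoa3 had a change of -0.08. Neither list had a gene at an unadjusted p under 0.05. With each gene as the mean of its tested probe sets, median log2 changes were 0.04 for acetyltransferases and deacetylases and -0.02 for bZIP factors. The median was -0.07 for the kinases of the CREB activation site, where the sign turned, and 0.03 for the CRTC kinases and 14-3-3 proteins. For the phosphatase list, with Ppp1r1a in it, the median was 0.03.

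**Figure D4:**
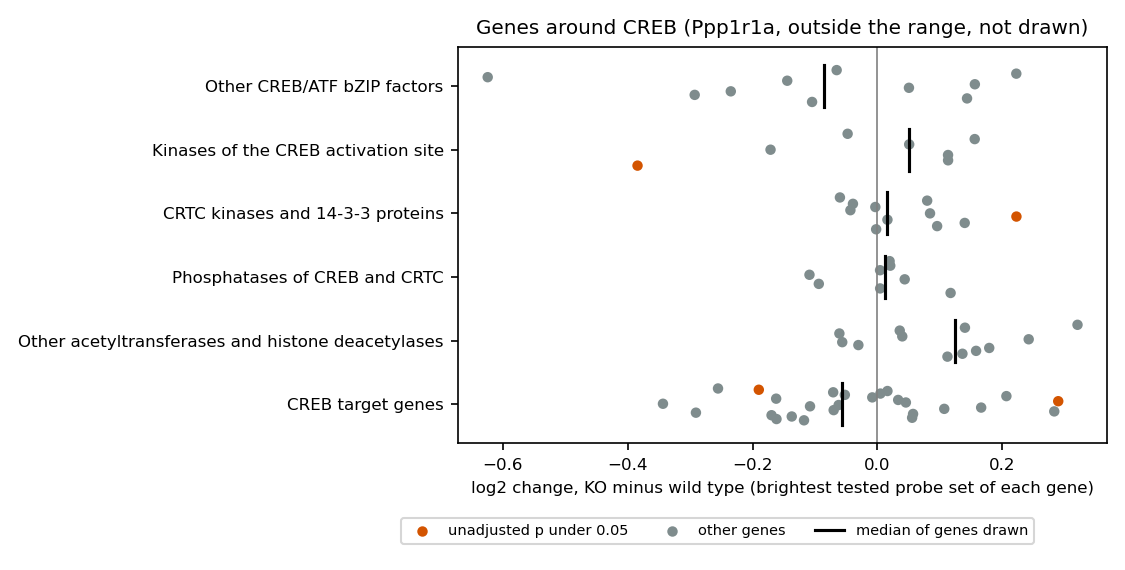
Log2 change, KO minus wild type, of each gene around CREB by its brightest tested probe set, 1 point per gene, with a bar at the median of the genes drawn. Ppp1r1a, which passed at -4.93, lies outside the range and is not drawn. Orange points have an unadjusted limma p under 0.05 (Akt1 at -0.38, Sik2 at 0.22, Sst at -0.19 and Nr4a2 at 0.29), and none of the genes drawn passed the adjusted threshold.

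Known CREB target genes were counted next, Sik1 being in this list and in that of the CRTC kinases. Of 26 tested, 11 had a change above 0 and 15 below 0 (median -0.06, or -0.09 with the mean of each gene's probe sets), and 2 had an unadjusted p under 0.05. Nr4a2, an activity-induced nuclear receptor, read 12998, 11371 and 10771 units in KO, against 10714, 9525 and 8537 in wild type. The lowest KO array lay just above the highest wild-type array, and the log2 change was 0.29 (SE 0.10). Its 4 other probe sets had changes from -0.78 to 0.24.

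Sst, the somatostatin gene of interneurons, in which the CRE was first defined, read 37551, 34429 and 31999 units in KO, against 38448, 39282 and 40677 in wild type. Every KO array lay below every wild-type array, with KO replicate 1 and wild type replicate 1 close together. The log2 change was -0.19 (SE 0.07).

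The rapidly induced targets Fos and Arc, chosen for description after their values were seen, varied more within groups than between them. Fos read 10085, 9548 and 3676 units in KO, against 9879, 14470 and 4539 in wild type. Arc read 10663, 9074 and 3613 units in KO, against 9496, 8929 and 5273 in wild type. Replicate 3 was the lowest array of each group for both genes, and the log2 changes of -0.29 for Fos and -0.12 for Arc were within that spread. It was also the lowest of each group for Egr1, Nr4a1, Junb and Nr4a2, but not for Nr4a3, Fosb or Npas4.

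The promoters of the targets show the sequence CREB reads. RefSeq promoters (250 bases before to 50 after each start, GRCm38.p6) were matched by symbol for 19 of the 26 targets and searched on both strands for the full CRE, TGACGTCA, and for its shorter form TGACG, which lies within the full one. The full CRE was in 5 of the 19 targets (26.3%), against 2.03% of all 27025 genes with a promoter, and TGACG in 17 (89.5%), against 23.0% of all. The list holds genes already known as CREB targets, among them Sst, so these higher shares are not a result of the arrays. The 5 targets with the full CRE are shown with 20 bases on either side, 5′ to 3′ on the gene's strand and with the CRE in capitals, because they are the ones in which the intact element lies close to the start.
Sst, chr16:23890865-23890912, minus strand: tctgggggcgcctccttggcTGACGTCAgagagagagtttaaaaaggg
Scg2, chr1:79440067-79440114, minus strand: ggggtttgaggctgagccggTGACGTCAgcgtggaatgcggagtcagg
Pcsk1, chr13:75089759-75089806, plus strand: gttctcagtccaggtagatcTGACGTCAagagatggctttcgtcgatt
Cartpt, chr13:99900768-99900815, minus strand: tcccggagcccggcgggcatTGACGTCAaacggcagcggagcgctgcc
Dusp1, chr17:26508588-26508635, minus strand: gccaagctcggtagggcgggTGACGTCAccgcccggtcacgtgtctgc

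The CRE ended 40 bases before the start in Sst, 60 in Scg2 (secretogranin 2), 70 in Pcsk1 (a prohormone convertase), 104 in Cartpt (a neuropeptide precursor) and 135 in Dusp1 (a MAP kinase phosphatase). Beside Sst at -0.19, the log2 changes were -0.07 for Scg2, -0.16 for Pcsk1, 0.06 for Cartpt and -0.17 for Dusp1. These are 4 of 5 below 0, with a median of -0.16, against a median of 0.02 for the 14 matched targets without the full CRE, and none of the 5 passed the threshold. Across the array, 358 tested genes with the full CRE had a median log2 change of 0.006 and 9758 genes without it one of -4.2e-05. An unadjusted p under 0.05 was reached by 4.47% of the genes with it and 4.51% of those without it.

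Promoters of 5 of the 7 genes themselves (Creb1, Crtc1, Crtc3, Crebbp and Ep300) were matched, and TGACG was in none of these windows. That says only that these letters are not in these stretches.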

How the data were processed

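Hippocampal total RNA of 3 inhibitor-1 KO and 3 wild-type mouse samples was measured on 1 one-colour array each. The authors deposited 1 table with a linear intensity value per probe set, and no source used here names the software. With 2% of the values trimmed from each end, every array averaged 2500, so the arrays had been scaled to one level. Of 45101 probe sets, 34958 had 1 gene symbol in the platform annotation, 932 several and 9211 none. Of those with 1 symbol, 34754 matched a RefSeq gene (GRCm38.p6), and 0 symbols changed.

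Values were taken as log2(intensity + 16) on the deposited scale, which understates the changes of dim ones. After 64 controls and the 40% with the lowest mean were left out, 26999 remained. limma 3.58.1 (R 4.3.3) compared the groups (group as the only term, intensity trend, two-sided). The fit was also run on simulated data with added changes of 1 and 2 log2 units, larger than those of the 17 probe sets. That run does not show whether changes as small as theirs could be found. The genes, lists and tests were chosen with earlier results of these data known. Named genes were all 7 genes, Ppp1r1a, the 2 of smallest p in each list and the 3 most like Creb1 in profile. Outside that rule, Fos and Arc, and Scg2, Pcsk1, Cartpt and Dusp1 for their full CRE, were chosen after their values were seen. So were Ywhab, the markers Gfap and Slc1a3, and the targets named for their replicate 3 values. Alternatives were other pseudocounts (1 and 64), filters, scalings and variance models, array weights, a replicate block and leaving out arrays. The number of arrays limits the precision, and no detection calls were used.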

Additional observations from a re-analysis of the deposited data

How the results depend on the processing

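None of the 17 tested probe sets passed the adjusted threshold under any of the 18 alternatives in which it was tested. Over all probe sets, 0 were called higher and 3 lower. The higher count was 7 with a replicate block and 0 to 7 leaving out arrays, with 2 without KO replicate 1 and 7 without replicate 1 of both groups. The lower count was 1 without an intensity trend and 3 to 7 leaving out arrays, with 7 without replicate 1 of both groups. The 2 probe sets at an unadjusted p under 0.05 became 1 with no filter, 1 with the replicate block and 0 to 1 leaving out arrays. They became 0 with the 60% filter, which leaves both out by construction. For the others the cause was not tested. Of 300 comparisons of a probe set's direction with an alternative, 292 kept it and 8 did not, all of them uncalled. Other scalings moved the median log2 change by at most 0.011. The labels pair no arrays. Deviations of same-numbered arrays from their group means had correlations of 0.24 (number 1), 0.054 (number 2) and 0.0998 (number 3), and wild type replicate 3 correlated best with KO replicate 2 (0.11). Median standard errors were 0.16 over the 17 and 0.18 over all probe sets.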
